A study of Mus musculus with 32 samples.

Results

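This account covers 10 genes for histone acetyltransferases, Crebbp, Ep300, Kat2a, Kat2b, Kat5, Kat6a, Kat6b, Kat7, Kat8 and Hat1, chosen by name out of the 55385 genes in the RNA tables. Histone acetyltransferases transfer an acetyl group from acetyl-CoA to lysines of histones, which marks open and transcribed chromatin. CBP, encoded by Crebbp, and its paralogue p300, encoded by Ep300, deposit acetylation of histone H3 at lysine 27 and are the targets of the catalytic inhibitor A-485. The other members work mostly as the catalytic subunits of larger complexes, and the early embryo first depends on copies of their mRNAs that the oocyte left behind.

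The study asked what happens to zygotic genome activation (ZGA), the start of transcription from the embryo's own genome, when acetylation is removed or kept too long in mouse preimplantation embryos. All embryos were wild type (WT) from in vitro fertilization of B6D2F1/J oocytes with B6D2F1/J sperm, with parents of 6 to 8 weeks, and embryos were pooled for each library. A-485-treated embryos were kept in 10 µM A-485 between 4 and 20 h post-insemination (hpi), and their controls in DMSO. Total RNA was sequenced in zygotes, within this window, at early 2-cell, and at late 2-cell, after the inhibitor was washed out. In a separate experiment, embryos were kept in 50 nM Trichostatin A (TSA), an inhibitor of histone deacetylases, or in DMSO between 8 and 28 hpi, and late 2-cell embryos were sequenced. This gave 8 groups of 2 libraries, 16 in all. By their sample numbers, the early 2-cell libraries were submitted together with those of the TSA experiment. The zygote libraries and the late 2-cell libraries of the A-485 experiment were submitted separately from these. In comparisons of early 2-cell with either of them, stage and submission cannot be told apart. The libraries show mRNA levels of pooled embryos and not enzyme activity, and fewer cells with a transcript cannot be told apart from fewer transcripts per cell. No source used here says whether the libraries of a group came from separate cultures, so the p-values measure only the spread between these libraries.

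The summed expected counts ran from 13206163 (A-485, late 2-cell) to 32585987 (A-485, zygote) per library. All 6 oocyte and zygote markers and all 6 2-cell markers were found in late 2-cell libraries, while cumulus cell markers summed to at most 2.49 FPKM, fibroblast markers to at most 2.64 FPKM, and sperm markers to at most 18.8 FPKM, in a zygote library. Erythroid markers summed to 44.6 and 46.75 FPKM in TSA-treated libraries, with 2 of 5 at 0, and to at most 4.71 FPKM elsewhere. The late 2-cell A-485-treated libraries stood apart in composition: mitochondrially encoded mRNAs took 5.35% and 5.43% of their counts against 2.35% and 2.45% in their controls, and the 20 most abundant genes took 32.1% and 32.6% against 19.0% and 20.1%. They also held 1427 and 1470 FPKM of oocyte and zygote markers against 782 and 820 FPKM in the controls, and 57.65 and 78.1 FPKM of 2-cell markers against 270.1 and 301 FPKM. In the TSA-treated libraries the mitochondrial share was 3.66% and 3.72% against 2.39% and 2.71%, and 2-cell markers summed to 495 and 509 FPKM against 165 and 213 FPKM. These differences move with the late 2-cell results, and their part in them was not tested.

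Here a member's level across conditions is given as CPM, the count per library size after TMM scaling over the 16 libraries, and levels compared between genes, sums of markers and levels of partner genes are given as FPKM, which is per kilobase. Each comparison was tested with TMM scaling over its own libraries, so that a change near 0 can differ in sign from the CPM printed beside it. Changes are log2 fold changes from the quasi-likelihood test of edgeR with Benjamini-Hochberg adjustment over all genes tested. A gene is called when its adjusted p is under 0.05, its change is at least 2-fold and its mean FPKM is at least 1 in either group. All 10 members passed the filter on low counts in every comparison.

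Crebbp lies at chr16:4081328-4213997 on the minus strand and Ep300 at chr15:81585351-81652077 on the plus strand of GRCm38. Kat2a lies at chr11:100704746-100712465 and Kat7 at chr11:95274259-95310246, both on the minus strand. Kat5 (chr19:5603014-5610237) lies on the minus strand, and Kat6a (chr8:22859535-22943259), Kat6b (chr14:21481434-21672478), Kat8 (chr7:127912516-127925837) and Hat1 (chr2:71388958-71441622) on the plus strand. The promoters of the first 4 genes are shown because the mRNAs of the paralogues Crebbp and Ep300 took different courses, because Kat2a, like Ep300, was called up-regulated by late 2-cell and down-regulated by both inhibitors, and because Kat7 had a peak of open chromatin near its start in all lists. Each line holds the RefSeq promoter (GRCm38.p6), from 250 bases before to 50 after the annotated start, with capitals for the GC box GGGCGG, the CCAAT box CCAAT and the ETS core CCGGAAG on either strand.
Crebbp: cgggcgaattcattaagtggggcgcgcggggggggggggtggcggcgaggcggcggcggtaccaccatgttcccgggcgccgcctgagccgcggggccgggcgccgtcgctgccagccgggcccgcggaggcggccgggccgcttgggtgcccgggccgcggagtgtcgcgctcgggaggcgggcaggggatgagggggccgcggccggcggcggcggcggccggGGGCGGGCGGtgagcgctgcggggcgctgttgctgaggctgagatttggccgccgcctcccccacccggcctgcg
Ep300: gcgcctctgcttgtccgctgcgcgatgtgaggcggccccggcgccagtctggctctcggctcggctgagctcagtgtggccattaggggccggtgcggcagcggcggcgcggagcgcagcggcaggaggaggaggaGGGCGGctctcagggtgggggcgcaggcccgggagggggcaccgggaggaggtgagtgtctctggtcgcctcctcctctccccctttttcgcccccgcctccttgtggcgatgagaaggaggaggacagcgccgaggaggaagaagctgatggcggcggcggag
Kat2a: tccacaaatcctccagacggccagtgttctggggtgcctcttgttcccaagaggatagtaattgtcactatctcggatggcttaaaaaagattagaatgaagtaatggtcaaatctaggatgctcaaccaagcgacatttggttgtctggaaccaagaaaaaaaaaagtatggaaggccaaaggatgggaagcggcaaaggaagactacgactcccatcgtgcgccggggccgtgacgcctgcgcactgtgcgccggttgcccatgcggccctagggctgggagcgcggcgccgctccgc
Kat7: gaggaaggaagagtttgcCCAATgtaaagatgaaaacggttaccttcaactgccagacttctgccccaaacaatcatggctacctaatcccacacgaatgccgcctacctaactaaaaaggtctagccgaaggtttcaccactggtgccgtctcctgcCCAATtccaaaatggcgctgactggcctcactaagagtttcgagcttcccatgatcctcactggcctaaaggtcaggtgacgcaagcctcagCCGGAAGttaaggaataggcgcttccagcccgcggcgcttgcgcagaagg
The windows are chr16:4213355-4213654 for Crebbp (minus strand), chr15:81585964-81586263 for Ep300 (plus strand), chr11:100712418-100712717 for Kat2a (minus strand) and chr11:95310197-95310496 for Kat7 (minus strand).

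The promoter of Crebbp was 82.0% G and C with 49 CpG dinucleotides, and that of Ep300 was 72.3% with 30, against medians of 52.7% and 7 over the 32851 promoters of the table. The promoter of Kat2a held 54.3% G and C with 19 CpG dinucleotides and that of Kat7 53.0% with 14. The GC box GGGCGG, a site of Sp and Klf factors, occurred 2 times in the Crebbp window and 1 time in the Ep300 window, and in 35.7% of all promoters. Kat2a held none of the 3 capitalised motifs. Kat7 held 2 CCAAT boxes, found in 37.4% of promoters, and 1 CCGGAAG, found in 8.86%. TGACG, the half-site of CREB factors, occurred 1 time each in Kat2a and Kat7 and in 20.8% of promoters, AGGTCA occurred 1 time in Kat7 and in 16.3%, and CACGTG was in none of the 4 windows and in 7.15%. None of these 6 strings contains another, and a match is a description of the letters and not a bound site. RefSeq entries matched 9 of the 10 members, all but Kat6a.

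Crebbp was the most abundant of the 10 mRNAs per kilobase in all 8 groups. In DMSO-treated zygotes it had 208 ± 13.8 FPKM (SD, n = 2), and the next were Kat6b at 55.9 FPKM, Kat7 at 51.5 FPKM and Kat6a at 38.7 FPKM. Ep300 ranked 7th there, at 24.3 FPKM, and Kat2b was lowest, at 1.97 FPKM. No neighbours in that order overlapped between their libraries. By late 2-cell, DMSO-treated embryos of both experiments had Crebbp, Ep300, Kat6a and Kat6b in this order with no overlap, and Ep300 was at 120.0 FPKM and 139 FPKM. The lowest ranks were not separated, since Kat5, Kat8 and Hat1 overlapped with at least 1 neighbour in both experiments. FPKM carries the effective length that RSEM weights by isoform in each library, and this length varied from 3256 to 5186 bases for Crebbp, from 797 to 1596 bases for Kat5 and from 604 to 4457 bases for Kat2b, but from 2824 to 2913 bases for Kat2a. With 1 fixed length per gene, chosen as an alternative after seeing these lengths, Crebbp was again highest in 8 groups.

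**Figure D1:**
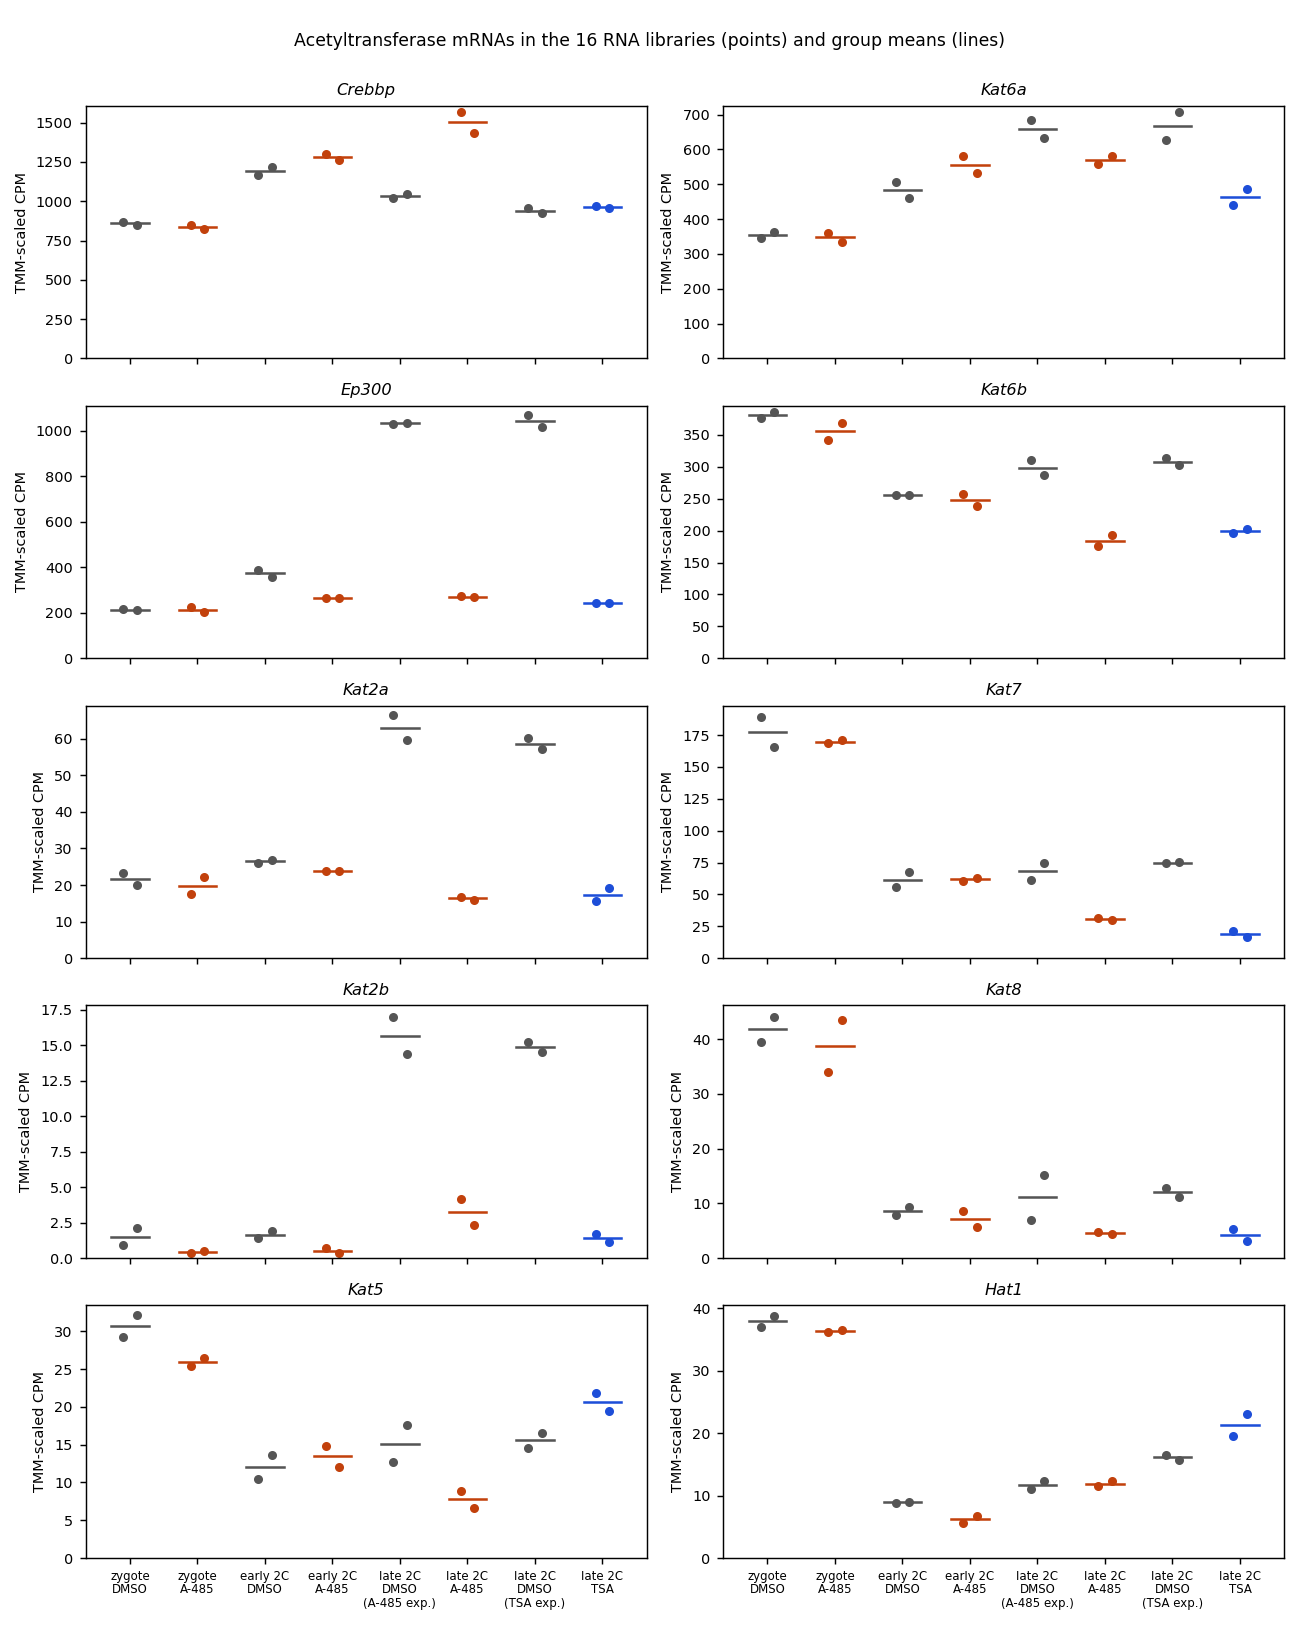
TMM-scaled CPM of each acetyltransferase mRNA (y axes, linear from 0) in the 8 groups (x axis), with a point for each of the 16 libraries and a line for the group mean (grey DMSO, orange A-485, blue TSA). Ep300, Kat2a and Kat2b were high only in the 4 late 2-cell DMSO libraries, whereas Kat7, Kat8 and Hat1 were highest in zygotes.

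Without inhibitor, the members followed different courses from zygote to late 2-cell. Levels of total RNA do not separate inherited from newly made copies. From zygote to early 2-cell, 4 members were called down-regulated (background 14.9% of genes tested) and none up-regulated (11.2%). These were Kat5, the catalytic subunit of the NuA4/TIP60 complex (log2 fold change -1.28 ± 0.19 SE, adjusted p 8.15e-05), Kat7, the HBO1 enzyme of H3K14 acetylation (-1.46 ± 0.11, 1.75e-07), Kat8, the enzyme of H4K16 acetylation (-2.21 ± 0.18, 2.85e-07) and Hat1, which acetylates newly made histone H4 (-2.03 ± 0.17, 4.34e-07), by edgeR. The median change of the 10 members was -0.17 against 0.08 over all genes tested. Over genes with a mean of 1 FPKM or more in either group the median was -0.12, near that of the members. By the adjusted p alone, 3 members were higher (22.7% of genes tested) and 5 lower (23.4%), with Crebbp (0.54), Ep300 (0.87) and Kat6a (0.50) up and Kat6b (-0.51) down by less than 2-fold. The rises turned to falls when libraries were scaled to the mitochondrial mRNAs, which moves the median gene by -1.33, to -0.79 for Crebbp, -0.46 for Ep300 and -0.83 for Kat6a, so they are relative to the other mRNAs of the library.

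From early 2-cell to late 2-cell, tested against the DMSO libraries of the TSA experiment, 3 members were called up-regulated (background 19.3%) and none down-regulated (10.3%). Ep300 rose by 1.52 ± 0.07 (SE, adjusted p 1.61e-08), Kat2a, the GCN5 subunit of SAGA, by 1.19 ± 0.13 (1.53e-05), and Kat2b, its paralogue PCAF, by 3.21 ± 0.29 (3.7e-06) on the log2 scale in edgeR. By the adjusted p alone, 6 members were higher (25.8% of genes tested) and 1 was lower (19.7%), with Kat6a (0.51), Kat6b (0.31) and Hat1 (0.90) up and Crebbp (-0.30) down by less than 2-fold. Of these 4, Crebbp, Kat6b and Hat1 no longer passed when the DMSO libraries of the A-485 experiment were used, with adjusted p of 0.0743 for Crebbp, 0.115 for Kat6b and 0.282 for Hat1 in edgeR, each the highest over the alternatives with all libraries except for Kat6b, which had 0.363 under mitochondrial scaling. Between the pairs of late 2-cell DMSO libraries, no member had an adjusted p under 0.05 in edgeR (1.68% of genes tested were higher and 0.688% lower), and 1 member, Hat1, had an unadjusted p under 0.05 there (p 0.0426, edgeR).

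From zygote to late 2-cell, tested against the DMSO libraries of the A-485 experiment, Ep300 (2.30), Kat2a (1.57) and Kat2b (3.40) were called up-regulated and Kat7 (-1.35), Kat8 (-1.89) and Hat1 (-1.67) down-regulated, against backgrounds of 19.7% in each direction. By the adjusted p alone 5 members were higher (28.4%) and 5 lower (26.5%), among them Kat6a at 0.92 and Kat5 at -0.999 on the log2 scale. Crebbp (0.29) and Kat6b (-0.32) no longer passed without either zygote library, with values from 0.26 to 0.31 for Crebbp and from -0.38 to -0.26 for Kat6b over the libraries left out in turn. The zygote libraries serve in this and in the first step, and the early 2-cell libraries in the first and the second, so these comparisons are not independent. Under mitochondrial scaling Kat6a turned from 0.92 to -0.39 and Crebbp from 0.29 to -1.01, Kat2a had 0.265 with an adjusted p of 0.252 in edgeR, and Ep300 and Kat2b stayed higher at late 2-cell.

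The ratio of Ep300 to Crebbp within a library does not depend on how libraries are scaled, and it set the late 2-cell controls apart. In DMSO-treated zygotes the Ep300 count was 0.248 and 0.249 of the Crebbp count, and in DMSO-treated early 2-cell embryos 0.333 and 0.295. In the DMSO-treated late 2-cell libraries it was 1.01 and 0.99 in the A-485 experiment, and 1.12 and 1.10 in the TSA experiment. After A-485 the late 2-cell ratio was 0.174 and 0.188, and after TSA it was 0.250 and 0.256. Thus the 4 late 2-cell control libraries lay above the other 12 libraries. In counts, the late 2-cell A-485-treated libraries lay below the zygote libraries. The TSA-treated libraries lay just above the zygote controls and below the early 2-cell controls. Counts are not corrected for length. In FPKM the late 2-cell ratio was 0.122 and 0.122 after A-485, and 0.122 and 0.121 after TSA. These values lay between the 0.11 and 0.124 of the zygote controls, so the order of treated libraries against zygotes holds in counts only. The late 2-cell controls had 0.5 to 0.633 in FPKM. With 2 libraries against 2, an exact permutation test cannot give a p under 0.333, so no test of this ratio is given.

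**Figure D2:**
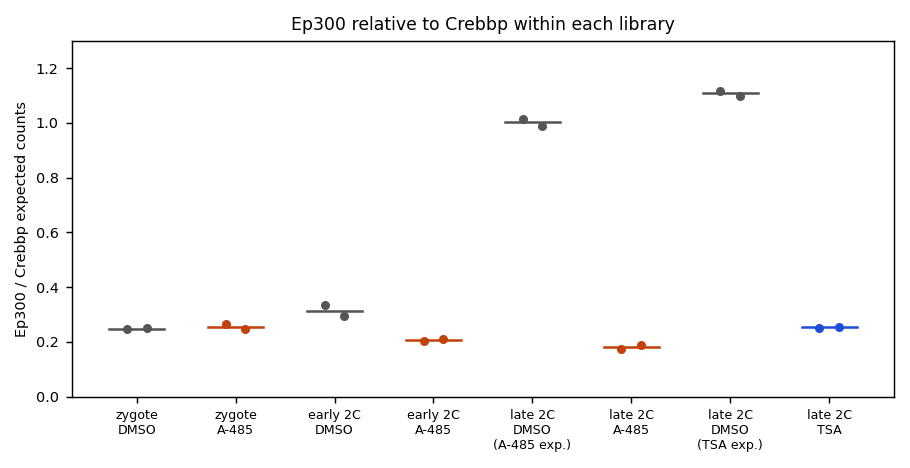
Ratio of Ep300 to Crebbp expected counts (y axis, linear) within each of the 16 libraries (points) and its group mean (lines), by group on the x axis. The ratio lay between 0.99 and 1.12 in the 4 late 2-cell DMSO libraries and between 0.174 and 0.333 in the other 12.

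In zygotes, no member passed the test after A-485 treatment. None was called in either direction (background 0.00548% up-regulated and 0.0657% down-regulated), and none had an adjusted p under 0.05 in edgeR (background 0.011% higher and 0.0876% lower), while 1 member, Kat2b, had an unadjusted p under 0.05 (p 0.0174, adjusted p 0.83). Ep300 had 215 and 212 CPM with DMSO and 224 and 204 CPM with A-485. Crebbp had 868 and 852 CPM with DMSO and 851 and 825 CPM with A-485. The libraries of Ep300 overlapped, those of Crebbp nearly touched, and the log2 fold changes were 0.08 ± 0.07 for Ep300 and 0.03 ± 0.06 for Crebbp (SE). For Crebbp the scaling over the 4 zygote libraries gave this small positive value although both treated libraries were lower in CPM, so no direction is read. The median over the 10 members was -0.01 against -0.005 over all genes tested, of which 1073, or 5.88%, had an unadjusted p under 0.05 in edgeR. Kat2b was counted 27 and 59 times with DMSO and 12 and 15 times with A-485, so that its change of -1.78 ± 0.655 rests on few reads.

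At early 2-cell, Ep300 was the only member with an adjusted p under 0.05 in edgeR, and no member was called (background 0.402% up-regulated and 7.9% down-regulated). Ep300 had 389.7 and 359 CPM with DMSO and 265 and 267 CPM with A-485. Both treated libraries were below both controls, by a log2 fold change of -0.47 ± 0.07 (SE, adjusted p 0.000962, edgeR). By the adjusted p alone, 10.2% of genes were lower and 1.77% higher. Crebbp had 1170 and 1218 CPM with DMSO and 1304 and 1260.1 CPM with A-485, all higher after treatment, and its change of 0.13 ± 0.06 did not pass (adjusted p 0.198, edgeR). Kat6a had 506 and 461 CPM with DMSO and 582 and 531 CPM with A-485, a change of 0.23 ± 0.07 with an adjusted p of 0.0657 in edgeR that ran from 0.0119 in DESeq2 to 0.457 under mitochondrial scaling over the alternatives with all libraries. Hat1 had 8.75 and 9.04 CPM with DMSO and 5.68 and 6.68 CPM with A-485, both treated libraries lower, a change of -0.50 ± 0.26 that did not pass (adjusted p 0.282, edgeR). Kat2a, Kat6b, Kat7 and Kat8 had log2 fold changes between -0.25 and 0.03, and Kat5 had 0.18 ± 0.23.

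**Figure D3:**
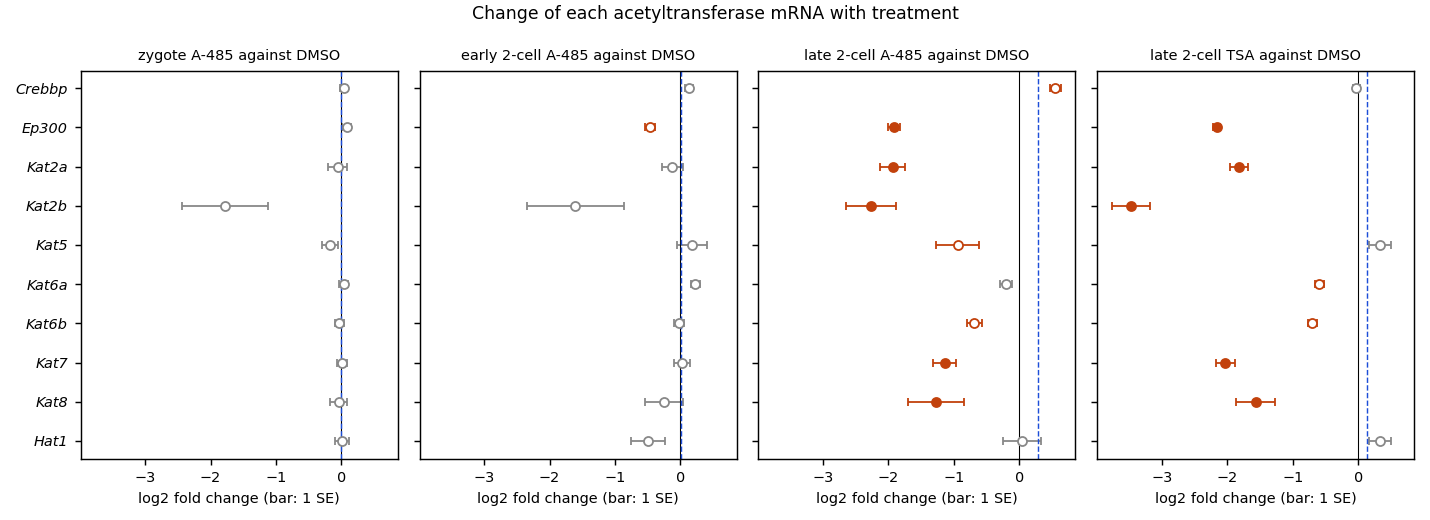
log2 fold change (x axis) of each member (y axis) in the 4 treatment comparisons, with bars of 1 SE from edgeR over 2 against 2 libraries. Filled orange points were called, open orange points had an adjusted p under 0.05 without a 2-fold change, grey points did not pass, and the dashed line is the median of all genes tested. Late 2-cell embryos had 5 filled points below 0 with each inhibitor and none above 0.

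At late 2-cell, 5 members were called down-regulated after A-485 treatment (background 16.8%) and none up-regulated (10.5%). By the adjusted p alone 7 members were lower (20.4% of genes tested) and 1 was higher (17%). The median log2 fold change of the 10 members was -1.04 against 0.28 over all genes tested. It was 0.015 over genes with a mean of 1 FPKM or more in either group. Without replicate 2 of the DMSO libraries 3 members were called, and with scaling to total counts 3, in both cases without Kat7 and Kat8.

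Ep300, the p300 target of the inhibitor, had 1031 and 1034 CPM in the late 2-cell DMSO libraries and 274 and 269 CPM after A-485. Both treated libraries were far below both controls and close to the 265 and 267 CPM of treated early 2-cell embryos. Its log2 fold change was -1.92 ± 0.09 (SE, adjusted p 2.19e-08, edgeR), and it ran from -2.90 under mitochondrial scaling to -1.73 under total-count scaling. The A-485 effects at late and early 2-cell were compared directly, and 4 members had a lower effect at late 2-cell (9.9% of genes tested) and 1 a higher one (10.1%) by an adjusted p under 0.05 in edgeR. For Ep300 the late effect was lower by -1.37 ± 0.12 on the log2 scale (adjusted p 8.28e-09, edgeR). The libraries of these stages were submitted separately, so stage and submission cannot be told apart here.

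Crebbp, the other target, went the other way relative to the rest of the library. It had 1018 and 1045 CPM in the late 2-cell DMSO libraries and 1571 and 1432 CPM after A-485, with both treated libraries higher. The log2 fold change was 0.55 ± 0.09 (SE, adjusted p 0.000267, edgeR), but it turned to -0.43 (adjusted p 0.00151, edgeR) under mitochondrial scaling, which moves the median gene by -0.98. The direction for Crebbp thus depends on the reference, whereas its rise relative to Ep300 does not.

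Kat2a had 66.5 and 59.5 CPM in the late 2-cell DMSO libraries and 16.7 and 15.97 CPM after A-485. The groups did not overlap, and the treated libraries lay below the zygote libraries too, which had 20.0 to 23.4 CPM with DMSO. Its log2 fold change was -1.94 ± 0.19 (SE, adjusted p 6.76e-06, edgeR). Kat2b had 17.0 and 14.4 CPM with DMSO and 4.155 and 2.34 CPM after A-485, and changed by -2.26 ± 0.38 (adjusted p 0.000577, edgeR).

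Among the MYST family members, Kat7 had 61.4 and 75.1 CPM with DMSO and 31.4 and 30.0 CPM after A-485 (log2 fold change -1.14 ± 0.18, SE, adjusted p 0.00034, edgeR). The change of Kat7 was under 2-fold without replicate 2 of the DMSO libraries (-0.97) and with scaling to total counts (-0.95), both with an adjusted p under 0.05. In FPKM Kat7 overlapped, with 19.4 and 25.75 against 16.8 and 19.8, where its effective length was 2926 and 2835 bases with DMSO and 2049 and 1649 bases after A-485. Kat8 had 7.04 and 15.3 CPM with DMSO and 4.71 and 4.44 CPM after A-485. The controls of Kat8 lay further apart than the lower control lay from the treated libraries, and its call (-1.27 ± 0.43, adjusted p 0.0359, edgeR) was lost without replicate 2 of the DMSO libraries (-0.59), in DESeq2 (adjusted p 0.0584) and with scaling to total counts (adjusted p 0.0667, edgeR), while over the alternatives with all libraries its adjusted p went down to 0.000835. Kat6b had 310.3 and 287 CPM with DMSO and 175 and 193 CPM after A-485, without overlap, and fell by 0.69 ± 0.12 on the log2 scale (adjusted p 0.000556, edgeR). Its paralogue Kat6a had 685 and 633 CPM with DMSO and 557 and 581 CPM after A-485, a change of -0.20 ± 0.09 that did not pass (adjusted p 0.112, edgeR). Kat5 had 12.7 and 17.6 CPM with DMSO and 8.93 and 6.66 CPM after A-485, and its change of -0.94 ± 0.32 (adjusted p 0.0386, edgeR) no longer passed in DESeq2 (adjusted p 0.0808), with scaling to total counts (adjusted p 0.0907) or without replicate 2 of the DMSO or of the A-485 libraries. Under mitochondrial scaling the adjusted p of Kat5 was 0.000375 in edgeR.

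Hat1, which works on new histones, had 11.02 and 12.3 CPM with DMSO and 11.6 and 12.3 CPM after A-485. The libraries overlapped, and the change was 0.04 ± 0.29 (SE, adjusted p 0.925, edgeR). It turned to -0.94 (adjusted p 0.0274, edgeR) under mitochondrial scaling, and its adjusted p was 0.0998 or higher in the other alternatives with all libraries.

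TSA treatment, which inhibits the opposing deacetylases, gave called falls in 5 members at late 2-cell too (background 13.9%) and no called rise (13.8%). By the adjusted p alone 7 members were lower (21.4% of genes tested) and none was higher (21.7%). The median log2 fold change of the 10 members was -1.13 against 0.13 over all genes tested. It was -0.031 over genes with a mean of 1 FPKM or more in either group. The treatments had separate DMSO libraries and differed in their windows.

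Ep300 had 1067 and 1016 CPM in the DMSO libraries of this experiment and 243 and 245 CPM after TSA. The groups were far apart, and the log2 fold change was -2.17 ± 0.06 (SE, adjusted p 2.81e-09, edgeR). The A-485 and TSA effects on Ep300 differed by 0.14 ± 0.11 (adjusted p 0.447, edgeR), a difference that did not pass but reached an adjusted p of 0.0241 in DESeq2 (0.27) and ran from 0.00655 to 0.695 over the alternatives with all libraries. Crebbp had 956 and 924 CPM with DMSO and 972 and 957 CPM after TSA. Both treated libraries were slightly higher in CPM, while the scaling over these 4 libraries gave -0.03 ± 0.05 (adjusted p 0.651, edgeR) and a fit of all 16 libraries 0.03, so no direction is read. With scaling to total counts, which moves the median gene by 0.355, the value became 0.32 (adjusted p 0.000531, edgeR), where the other alternatives with all libraries gave 0.209 to 0.788.

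Kat2a had 60.1 and 57.2 CPM with DMSO and 15.5 and 19.3 CPM after TSA, a log2 fold change of -1.83 ± 0.14 (SE, adjusted p 1.56e-06, edgeR). Kat2b had 15.2 and 14.5 CPM with DMSO and 1.67 and 1.12 CPM after TSA (-3.48 ± 0.29, adjusted p 3.35e-06, edgeR). Kat7 had 74.4 and 75.1 CPM with DMSO and 21.7 and 16.6 CPM after TSA (-2.04 ± 0.15, adjusted p 1.04e-06, edgeR). For these 3 genes the groups did not overlap.

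Kat8 had 12.9 and 11.2 CPM with DMSO and 5.36 and 3.15 CPM after TSA (log2 fold change -1.57 ± 0.30, SE, adjusted p 0.00141, edgeR), without overlap. Kat6a (-0.60 ± 0.07, adjusted p 3.58e-05) and Kat6b (-0.70 ± 0.07, adjusted p 1.19e-05) fell by less than 2-fold in edgeR. Kat5 had 14.6 and 16.6 CPM with DMSO and 21.9 and 19.4 CPM after TSA, and Hat1 had 16.5 and 15.8 CPM with DMSO and 19.5 and 23.0 CPM after TSA. Both were higher in both treated libraries, by 0.34 ± 0.17 for Kat5 (adjusted p 0.14) and 0.33 ± 0.17 for Hat1 (adjusted p 0.141), and did not pass in edgeR. With scaling to total counts they did, at 0.69 for Kat5 (adjusted p 0.00709) and 0.68 for Hat1 (adjusted p 0.00602), where the other alternatives with all libraries reached up to 0.601 for Kat5 and 0.594 for Hat1, and Hat1 also passed against the DMSO libraries of the A-485 experiment (0.89, adjusted p 0.00725).

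The A-485 and TSA effects at late 2-cell were compared directly, and 3 members had an adjusted p under 0.05 for the difference in edgeR. Crebbp was higher after A-485 relative to TSA by 0.48 ± 0.10 (SE, adjusted p 0.00273) and Kat7 by 0.79 ± 0.23 (adjusted p 0.0245), where 4.59% of genes tested were higher. Kat5 was lower by -1.39 ± 0.36 (adjusted p 0.0106), where 12.7% were lower. Under mitochondrial scaling Crebbp turned to -0.22, Ep300 to -0.55, and Kat7 to 0.085 (adjusted p 0.931, edgeR), so for these the order of the drugs rests on the scaling. Kat7 also lost its call without replicate 1 of the DMSO libraries of the A-485 experiment, and without replicate 1 or replicate 2 of the DMSO libraries or replicate 2 of the TSA-treated libraries of the TSA experiment, with differences from 0.63 to 1.03 over all libraries left out in turn. Kat5 stayed lower under each scaling, but its call was lost, at differences from -1.60 to -1.14 over all libraries left out in turn, without replicate 2 of the late 2-cell DMSO libraries of the A-485 experiment, or without replicate 1 of the DMSO or of the TSA-treated libraries of the TSA experiment.

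Kat2b shares 95.1% of 2479 aligned bases with Kat2b-ps, a processed pseudogene at chr5:93390602-93393091 on the minus strand, so that reads could be assigned to either copy. Kat2b itself lies at chr17:53566861-53672720 on the plus strand. Kat2b-ps had 1.00 and 1.49 CPM in DMSO-treated zygotes and 75.2 and 71.0 CPM in DMSO-treated early 2-cell embryos. After A-485 it had 0.62 and 0.65 CPM at early 2-cell, a log2 fold change of -6.80 ± 0.20 (SE, adjusted p 5.87e-10, edgeR). Both treated libraries were at or below the level of the zygote controls, while Kat2b had between 0.35 and 1.90 CPM in these 4 libraries and did not pass (-1.61 ± 0.74, adjusted p 0.217, edgeR).

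At late 2-cell Kat2b-ps had 54.1 and 75.6 CPM with DMSO and 17.4 and 7.955 CPM after A-485 (log2 fold change -2.35 ± 0.32, SE, adjusted p 0.000105, edgeR). After TSA it had 69.6 and 64.7 CPM against 55.1 and 52.9 CPM with DMSO, a change of 0.24 ± 0.10 that did not pass (adjusted p 0.0849, edgeR). The genes of this pair thus parted after TSA, with 1544 and 1438 counts of Kat2b-ps beside 36.6 and 25.3 counts of Kat2b. When the counts of both were summed, the TSA change was -0.08 (adjusted p 0.592) and the early 2-cell A-485 change was -5.97 (adjusted p 1.24e-09) in edgeR, and the rise from early 2-cell to late 2-cell became -0.07. In early 2-cell DMSO, late 2-cell and TSA-treated libraries most reads of the sum belong to Kat2b-ps, so the sum follows the pseudogene and does not test how reads were divided. RSEM's own posterior SD of the count was between 0 and 2.36 reads for both genes over the 16 libraries.

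**Figure D4:**
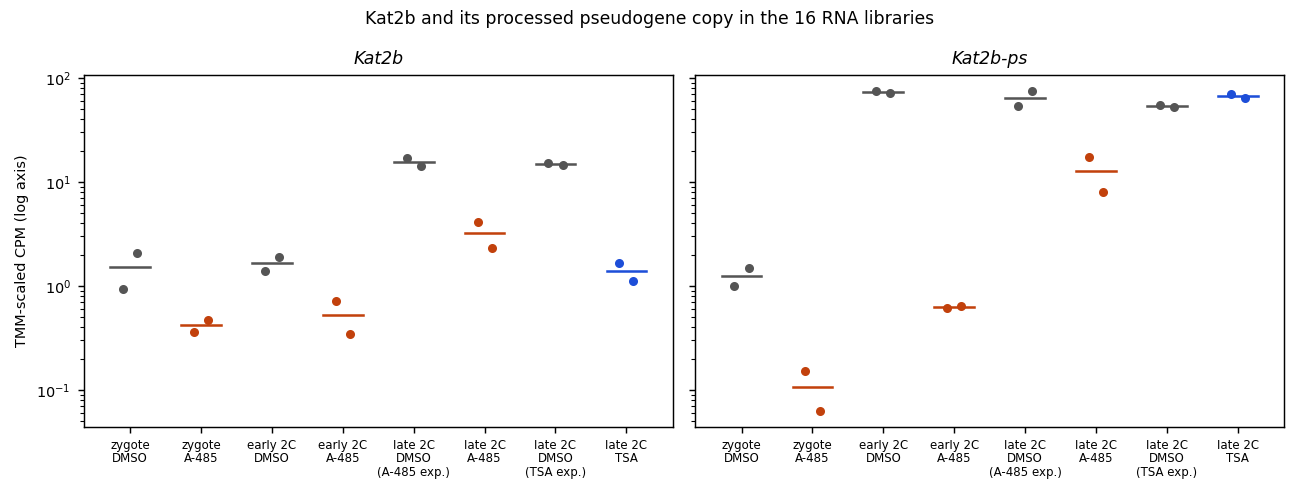
TMM-scaled CPM (y axis, log scale) of Kat2b and of its processed pseudogene Kat2b-ps in the 16 RNA libraries (points), with group means (lines), by group on the x axis (grey DMSO, orange A-485, blue TSA). Kat2b-ps was at 75.2 and 71.0 CPM in early 2-cell DMSO libraries and at 0.62 and 0.65 CPM after A-485, and it stayed high after TSA where Kat2b was low.

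Kat5, Kat8 and Kat6b carry limits of the same kind. Kat5 shares 426 exon bases with Rnaseh2c and Kat8 shares 122 exon bases with Prss8 on opposite strands, and Kat6b is 91.2% identical to Kat6b-ps2 over 1603 bases. Kat6b-ps2 was at most 0.43 FPKM in any library. The overlap was 12.1% of the exon bases of Kat5 and 4.22% of those of Kat8, and Rnaseh2c reached at most 11.2 FPKM and Prss8 at most 7.39 FPKM. The kit kept the strand, but whether the counting used it is not stated in the sources used here.

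The complexes in which these enzymes work were followed through 8 lists of 93 partner genes in all, written with earlier results of these data known. At zygote no partner was called after A-485 treatment, of 90 tested (background 0.0657% down-regulated and 0.00548% up-regulated). At early 2-cell 9 of 92 were called down-regulated and 1 up-regulated, against 7.9% and 0.402% of all genes tested. At late 2-cell 39 of 92 were called down-regulated after A-485 and none up-regulated (background 16.8% and 10.5%), and after TSA 28 of 93 were called down-regulated and 2 up-regulated (13.9% and 13.8%). These 2 shares for down-regulated genes, 16.8% after A-485 and 13.9% after TSA, are the background of each late 2-cell count of a list that follows. The median partner changed by -0.825 after A-485 against 0.28 over all genes tested, and by -0.56 after TSA against 0.13. Over genes with a mean of 1 FPKM or more in either group the medians were 0.015 after A-485 and -0.031 after TSA.

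SAGA and ATAC, the complexes built around Kat2a and Kat2b, had 17 of 20 other subunits called down-regulated at late 2-cell after A-485, with a median of -1.775, and 9 of 20 after TSA, with a median of -0.865. Usp22, the deubiquitinase of SAGA, had 79.5 and 54.5 FPKM with DMSO and 7.83 and 3.69 FPKM after A-485 (log2 fold change -4.65 ± 0.25, SE, adjusted p 4.85e-08, edgeR). After TSA it had 5.65 and 6.54 FPKM against 50.8 and 62.9 FPKM (-3.74). The log2 fold change was -4.37 for its cofactor Atxn7l3 and -3.56 for Taf6l after A-485, and -3.06 for Taf5l and -2.81 for Dr1 after TSA. At early 2-cell after A-485, Dr1 (-1.72) and, at a low level and named after its value was seen, Atxn7l3 (-3.50) were called too. In DMSO-treated embryos 12 of the 20 had been called up-regulated from early 2-cell to late 2-cell (background 19.3%), and 1 down-regulated (10.3%).

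Of the partners of the MYST enzymes, the MOZ/MORF and HBO1 list had 5 of 9 called down-regulated after A-485 and 4 of 9 after TSA, among them the scaffold Brpf1 (-2.43 after A-485 and -1.40 after TSA), Ing4 (-1.91 and -3.33) and Meaf6 (-1.77 and -2.23). Of this list 3 of 9 genes were called down-regulated at early 2-cell (background 7.9%), with Jade1 at -2.41, Brpf1 at -1.31 and, named after its value was seen, Jade3 at -2.24. The MSL and NSL list around Kat8 had 3 of 12 called after A-485, against 16.8% of all genes tested, and 5 of 12 after TSA (13.9%), led by Kansl3 (-2.70 and -2.99). Kansl2 was at -1.79 and -1.48, Hcfc1 at -1.02 after A-485 and Kansl1 at -1.52 after TSA. In FPKM Hcfc1 overlapped, with 40.9 and 19.7 after A-485 against 34.9 and 41.35 with DMSO. The NuA4/TIP60 list around Kat5 had 4 of 15 called down-regulated after A-485 and 2 of 15 after TSA, the latter at the background of 13.9%. Its medians were -0.06 and -0.14. By the adjusted p alone 3 genes were higher (17% of genes tested) and 5 lower (20.4%) after A-485. The called genes were led by Ruvbl1 at -4.45 and -2.29, Brd8 at -2.27 and -2.53 and Actl6a at -1.79 after A-485. Ruvbl1 had been called at early 2-cell too (-1.59).

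The histone chaperone Nasp changed by -2.28 after A-485 and by -2.15 after TSA on the log2 scale, the Hat1 cofactor Rbbp7 by -1.48 after A-485, and Rbbp4 by -1.43 and -1.34. In all, 3 of 5 genes of that list were called down-regulated after A-485 (background 16.8%) and 2 of 5 after TSA (13.9%). For each list named so far, no member was called up-regulated at late 2-cell after either drug.

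Of the genes for proteins that bind CBP and p300, 1 of 12 was called down-regulated at late 2-cell after A-485, below the 16.8% of all genes tested, with a median of -0.15. This was Crem, a CREB family factor, at 1.45 and 1.24 FPKM against 10.5 and 9.09 FPKM in controls (log2 fold change -2.41 ± 0.46, SE, adjusted p 0.00133, edgeR). After TSA, Crem (-2.40) and Creb1 (-2.70) were called down-regulated and Cited4, a transactivator that binds CBP, was called up-regulated, with 11.95 and 7.34 FPKM against 0.24 and 0.11 FPKM (5.37 ± 0.47, adjusted p 5.23e-06, edgeR). At early 2-cell after A-485, Cited1 was called down-regulated (-2.31) and Creb1, named after its value was seen, up-regulated (1.21). Among other acetyltransferases 4 of 11 were called after A-485 and 3 of 11 after TSA, each time with Gtf3c4 (-2.97 and -2.21), Nat10 (-2.76 and -2.15) and Taf1 (-1.47 and -1.15), and Gtf3c4 was called at early 2-cell too (-2.12). Of the genes that supply acetyl-CoA, with few genes in the list and shares near the background, 2 of 8 were called down-regulated after A-485, Pdhb (-2.05) and Pdha1 (-1.49). After TSA 1 of 9 was called down-regulated, Pdha1 (-1.48), and 1 up-regulated, the citrate carrier Slc25a1 (3.06), and Pdhb was called at early 2-cell after A-485 (-1.07).

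**Figure D5:**
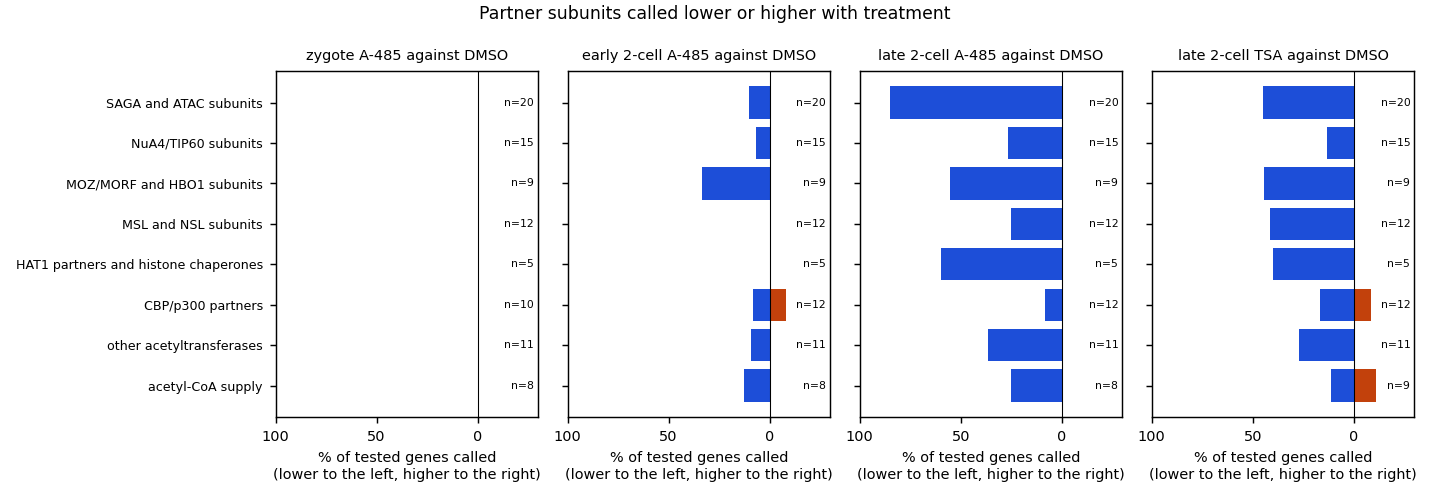
Share of tested genes of each partner list (y axis) that was called lower (blue bars, to the left of 0) or higher (orange bars, to the right) in the 4 treatment comparisons, in percent on the x axis, with the number tested beside each bar. SAGA and ATAC subunits at late 2-cell after A-485 had 17 of 20 called lower, and the zygote panel holds no bar.

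Open chromatin at the members was read from 4 ATAC-seq lists, 1 for each of late 1-cell and early 2-cell with DMSO or A-485, each called by the authors over both replicates, so that no test between them is possible. A peak lay within 1 kb of an annotated start of 4 of the 10 members in late 1-cell DMSO, 5 in late 1-cell A-485, 8 in early 2-cell DMSO and 7 in early 2-cell A-485. Over all protein-coding genes the shares were 26.2%, 24.7%, 31.8% and 41.0%. With the same number of strongest peaks taken from each list of a stage, the early 2-cell counts became 4 members with DMSO and 7 with A-485, and the shares over all protein-coding genes 21.6% and 41.0%, so the whole lists shifted the same way.

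Kat7 had a peak at its start in all 4 lists, with a fold enrichment of 7.25 in late 1-cell DMSO, 6.38 in late 1-cell A-485, 9.66 in early 2-cell DMSO and 7.99 in early 2-cell A-485. The peaks lay within 308 bases of the start of the gene, and those of the last 3 lists overlapped the promoter printed above. Kat6a also had a peak in all 4 lists, with fold enrichments between 4.69 and 8.55, and so had Kat6b. The Kat6b peaks of the late 1-cell lists lay 18906 and 18705 bases inside the gene at an internal start. The RefSeq promoters of Kat6b lie just before these peaks, at chr14:21499520-21499819 and chr14:21499535-21499834. No list held a peak that overlapped them. Early 2-cell DMSO held 3 Kat6b peaks within 1 kb of a start, and early 2-cell A-485 held 2. The peak with the highest fold enrichment lay 18522 bases inside the gene with DMSO, and at the start of the gene with A-485. The places of the others are not given here, so no move of the open site is read. Hat1 had one in all lists but late 1-cell A-485, Kat8 in both early 2-cell lists (4.26 with DMSO and 6.45 with A-485), and Kat5 only in late 1-cell A-485 (5.28). At Ep300 a peak over the start of the gene was listed in late 1-cell A-485 (6.30), in early 2-cell DMSO (4.74, chr15:81585100-81585849) and in early 2-cell A-485 (6.54, chr15:81585117-81586484), but not in late 1-cell DMSO. The start that RefSeq gives for Ep300 lies further into the gene, and the promoter printed above was covered by the peaks of both A-485 lists only.

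Crebbp had no peak within 1 kb of a start in either late 1-cell list. In early 2-cell A-485 it had a peak at chr16:4212899-4213533 (fold enrichment 7.07) that reached the printed promoter, and in early 2-cell DMSO the peak nearest to an annotated start lay 85850 bases inside the gene at a shorter transcript. Kat2a had no peak within 1 kb in any list, and Kat2b-ps had none either. Kat2b had a peak in early 2-cell DMSO 985 bases from an internal start, just inside the window of 1 kb, and a peak in early 2-cell A-485 outside that window but within 2.5 kb of a start. With 2.5 kb, 8 members had a peak in each early 2-cell list. At early 2-cell the start of Ep300 thus held a peak in both lists, while its mRNA was lower after A-485.

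Within the bodies of the members, early 2-cell DMSO held 16 peaks over 2.5 kb from any annotated start, in 6 of the 10 genes, 8 of them in Kat6b and 4 in Crebbp. The list of early 2-cell A-485 and both late 1-cell lists held 0 such peaks in the members. Over the whole lists, 60.4% of early 2-cell DMSO peaks and 29.1% of early 2-cell A-485 peaks lay over 2.5 kb from any start, so the members share a difference of the whole lists, whose depth is unknown.

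Across the 8 groups, the genes whose profile lay closest to that of Ep300 were Mga, Ythdf2, Gfpt1, Xpo1 and Khdrbs1, with a root mean square difference of 0.11 to 0.155 on the log2 scale of mean FPKM, against a median of 1.25 over 9898 protein-coding genes. Kat2a was the closest member, at 0.39 and rank 146, and Crebbp lay at 0.98. The closest to Crebbp were Vrk2, Cep85l, Atrnl1, Il7 and Aida, at 0.05 to 0.08, against a median of 0.95. These likenesses share the 16 libraries and their scaling and are a description.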

How the data were processed

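Total RNA libraries of pooled mouse embryos, 16 in 8 groups of 2, were grouped by the labels of the submitters, and 4 ATAC-seq peak lists were read for 2 stages with and without A-485. Per the submitters' processing notes, the authors trimmed reads with Trimmomatic 0.39, aligned RNA reads with STAR 2.7.8a and quantified them with RSEM 1.3.1 on GRCm38, and the deposited values are expected counts and FPKM per gene. The deposited ATAC-seq peaks carry a score, a fold enrichment and a −log10 p-value per peak from reads aligned by the authors with Bowtie2 2.4.2, and each list is the reproducible set over both replicates.

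Expected counts were rounded, genes with at least 10 counts summed were kept, and TMM-scaled counts were tested with edgeR 4.0.16 (quasi-likelihood F test) in R 4.3.3, with Benjamini-Hochberg adjustment over all genes tested. The test steps were checked on simulated data with known changes. A gene was called with an adjusted p under 0.05, at least a 2-fold change and 1 FPKM or more as the mean of either group. DESeq2 1.42.0, other scalings and libraries left out in turn were the alternatives. Copies with at least 90% identity over at least 300 bases were found with blastn 2.17.0 among GENCODE M21 transcripts, and the same annotation gave gene names and start sites. Peaks were assigned to a member within 1 kb of an annotated start. Python 3.11.15 with pandas 2.3.3 was used for tables.

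The 10 members, the partner lists and the marker lists (oocyte and zygote, 2-cell, cumulus cell, sperm, fibroblast and erythroid) were chosen with earlier results of these data known. All 10 members are described, and from each partner list up to 3 called genes of each direction with the largest changes and 5 FPKM or more as the higher group mean were named per treatment comparison. For Ep300 and Crebbp the 5 genes with the closest profile were named, on log2 of mean FPKM plus 0.1. The other 16 of the 32 samples of the series were not used for RNA. FPKM depends on the effective length per library, and the late 2-cell A-485-treated libraries were the shallowest, which limits their low genes most.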

Additional observations from a re-analysis of the deposited data

Results flagged for a closer look

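The effect of A-485 differed between late 2-cell and early 2-cell embryos, by an interaction test in edgeR, for 5 members and for the pseudogene copy of 1 more. The log2 differences, late minus early, were 0.504 for Crebbp (adjusted p 0.00112), -1.369 for Ep300 (8.28e-09), -1.735 for Kat2a (1.4e-05), -0.586 for Kat6b (0.00501), -1.085 for Kat7 (0.000654) and 4.532 for Kat2b-ps (7.09e-09), where 10.1% of genes tested were higher and 9.9% lower. For Crebbp the difference was no longer past the threshold without replicate 1 of the early 2-cell DMSO libraries or without replicate 2 of the late 2-cell DMSO libraries, with values from 0.28 to 0.51 over the libraries left out in turn, and it turned to -0.54 under mitochondrial scaling.

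The effects of A-485 and TSA at late 2-cell also differed. The log2 differences, A-485 minus TSA, were 0.477 for Crebbp (adjusted p 0.00273), -1.388 for Kat5 (0.0106), 0.785 for Kat7 (0.0245) and -2.703 for Kat2b-ps (1.71e-05) in edgeR.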

How the results depend on the processing

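Each member comparison was repeated with DESeq2, with total-count and mitochondrial scaling, without the count filter, in a fit of 16 libraries and with each library left out in turn. Of the alternatives for single members, 1122 gave the same reading, of which 51 changed sign with neither value at an adjusted p under 0.05. Another 27 lost and 38 gained an adjusted p under 0.05 in the same direction. A further 13 reversed and 10 untested values moved, 8 of them with TPM in place of FPKM. With TPM the late 2-cell to zygote ratio of DMSO levels was 0.615 for Crebbp (1.031 in FPKM) and 2.924 for Ep300 (4.938 in FPKM). TPM here divides each FPKM by the summed FPKM of its library, so all genes of a library are divided by the same value. Why the summed FPKM differed between the stages was not tested. Without the fold cutoff the members lower at early 2-cell after A-485 became 1, those higher at late 2-cell after A-485 became 1, those higher from zygote to early 2-cell 3, from early to late 2-cell 6 higher and 1 lower, and from zygote to late 2-cell 5 higher and 5 lower. With total-count scaling 3 members were lower at late 2-cell after A-485 (3435 of 22822 genes tested), and Crebbp was 0.322 after TSA.

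With mitochondrial scaling 8 members were lower at late 2-cell after A-485, where 6874 of 22822 genes tested were, against 3824 in the main fit. Crebbp was at -0.428 and Hat1 at -0.94. From zygote to early 2-cell Crebbp became -0.793, Ep300 -0.462, Kat2a -0.971 and Kat6a -0.831. From zygote to late 2-cell 1 member was higher and 6 were lower, where 2400 and 7750 of 20253 genes tested were. Crebbp was at -1.013 and Kat6a at -0.391 there. For the late against early A-485 effect 0 members were higher and 8 lower, where 1118 and 6287 of 25141 genes tested were, with Crebbp at -0.544. For A-485 against TSA 0 were higher and 5 lower, where 412 and 6639 of 26554 were, with Crebbp at -0.217 and Ep300 at -0.554. In DESeq2 4 members were higher for A-485 against TSA, where 1892 of 26554 genes tested were. With Kat2b summed with Kat2b-ps, 1 member rose from zygote to early 2-cell, and Kat2b was -0.074 from early to late 2-cell. With the strongest peaks only, 4 members had a peak in early 2-cell DMSO (21.6% of protein-coding genes).

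With libraries left out in turn, where a lone library is assumed to vary like the other groups, the members called lower at late 2-cell after A-485 ran from 3 (without replicate 2 of the DMSO libraries) to 6, those lower from zygote to late 2-cell from 3 to 4, those of the late against early A-485 effect from 0 to 1 higher and 4 to 7 lower, and those of A-485 against TSA from 1 to 3 higher and 0 to 1 lower. Same-numbered libraries of treatment and control correlated in their deviations by -0.029 at zygote, -0.019 at early 2-cell, -0.033 at late 2-cell (A-485) and 0.479 (TSA). Each comparison has 2 such pairs, and no label names a shared batch. The value of the TSA experiment stood apart from the others, and its cause was not tested. The main fits used no pairing. With a replicate block, 5 members were called lower at late 2-cell after A-485 (3852 of 22822 genes tested). The block gave 5 after TSA (3295 of 23429) and 4 from zygote to late 2-cell (3968 of 20253). One fixed effective length per gene was chosen after seeing the data.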
